A study of Mus musculus with 12 samples.

Results

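The miR-302 and miR-367 cluster is a group of 5 miRNA hairpins that lie side by side in the mouse genome, and its small RNAs were followed here in AGO2 pull-downs from mouse embryonic stem cells. The members were every table entry named miR-302a to miR-302d or miR-367, with or without the star that marks the less abundant strand of a hairpin. This gave 8 entries of 689, 5 of them main arms and 3 star arms. No starred entry was found for miR-302d or miR-367. The stem cells, grown on gelatin with leukemia inhibitory factor, all carried a tagged AGO2 (HA and FLAG) under doxycycline control. AGO2, an Argonaute protein, is guided to target RNAs by the miRNA bound to it, and the tagged protein was pulled down with an anti-FLAG antibody. The 12 libraries formed 4 groups of 3, namely the nuclear and the total fraction of cells given doxycycline (2.5 ug/ml, 15 h) and both fractions of cells given none, which show the reads that came down without induction. The labels name the other fraction "Total" while the protocol speaks of cytoplasm, so whether it held nuclei is not known. The labels do not say whether the libraries of a group came from separate cultures, or whether the line was 1 clone.

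In mammals the cluster is known for its part in pluripotency. The miR-302 miRNAs promote passage through the cell cycle and the reprogramming of somatic cells, and in the mouse they are known more from the epiblast and primed stem cells than from naive stem cells, where the cluster of miR-290 to miR-295 (here the miR-290 cluster) leads. A miRNA finds its targets mainly by its seed, bases 2 to 8 from its 5′ end. The mature sequences of the members are shown with the seed in capitals, since the seed decides which other miRNAs they can be grouped with (RefSeq, GRCm38.p6). RefSeq sequences were matched to 7 of the 8 entries.
miR-302b: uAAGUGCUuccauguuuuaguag
miR-302d: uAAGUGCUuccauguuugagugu
miR-302c: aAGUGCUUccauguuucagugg
miR-367: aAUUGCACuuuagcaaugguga
miR-302a*: aCUUAAACgugguuguacuugc
miR-302b*: aCUUUAACaugggaaugcuuucu
miR-302c*: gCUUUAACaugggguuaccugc

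miR-302b and miR-302d had the same seed and were identical over their first 17 bases. miR-302c carried the same letters from its first base on, with a shared run of 16 bases, but its annotated 5′ end lay 1 base further in. Its seed by annotation was therefore AGUGCUU, and no group of entries was built for that seed. miR-367 had no run longer than 5 bases in common with the main arms above. Of the star arms, miR-302b* and miR-302c* shared a seed and a run of 12 bases, and miR-302a* had a seed of its own. For comparison, the most abundant entries with the seeds of miR-302b and of miR-367 outside the cluster are shown in the same way.
miR-294: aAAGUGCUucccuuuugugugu
miR-291a-3p: aAAGUGCUuccacuuugugugc
miR-295: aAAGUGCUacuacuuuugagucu
miR-92a: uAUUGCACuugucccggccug
miR-25: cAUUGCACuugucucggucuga

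The 5 hairpins spanned 580 bases at chr3:127545228-127545807 on the plus strand of GRCm38, in the order miR-302b, miR-302c, miR-302a, miR-302d and miR-367. Gaps between neighbours were 43 to 65 bases. All 5 lay in the intron between exons 8 and 9 of Larp7, a gene for an RNA-binding protein that is read from the opposite strand, and miR-367 ended 18 bases from exon 8 (GENCODE vM21, transcript Larp7-201). The hairpins were 66 to 75 bases long.

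The authors' table gave 1 mean of estimated counts for each miRNA and group. No difference below therefore has a replicate check, no test across libraries was possible, and intervals are 95% intervals for counting error alone. PCR reads without molecular identifiers are not independent molecules, so true errors are wider. The mean sum of all miRNA reads was 400794 (nuclear) and 539627 (total) with doxycycline, and 36329.9 and 16053.4 without it. A single read over the 3 libraries was thus worth 0.832 and 0.618 counts per 1e+06 miRNA reads (CPM) with doxycycline, but 9.18 and 20.8 CPM without it. The stem cell label was checked against the 14 arms of the miR-290 cluster, which summed to 657049 CPM in nuclear and 688152 CPM in total AGO2 with doxycycline, with 0 arms at 0. In the same order, entries known from other cells summed to 25.2 and 11.1 CPM for muscle (4 entries, of which 1 was at 0 in the total fraction), 103 and 109 CPM for miR-122 of liver, and 940.5 and 1240 CPM for fibroblasts (5 entries). The neural list (4 entries, led by miR-124) summed to 7429 and 5400 CPM, the blood list (4 entries, led by the arms of miR-142) to 8491 and 7291 CPM, and let-7 (16 entries, of which 3 were at 0 in the total fraction) to 1268 and 1573 CPM. Without doxycycline the makeup differed: the miR-290 cluster summed to 142767 CPM in the nuclear and 321418 CPM in the total fraction, miR-122 to 6267 and 4630 CPM, muscle to 746 and 201 CPM and let-7 to 3376 and 11953 CPM. There the neural list summed to 4331 and 7371 CPM, the blood list to 10506 and 11877 CPM and the fibroblast list to 1359 and 2630 CPM. The part of these entries in the comparisons below was not tested. In bulk libraries, fewer cells of a type and less RNA per cell cannot be told apart.

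The cluster made up a small part of the miRNAs bound to AGO2 in both fractions. Its 8 entries summed to a mean of 447 reads (423 to 472, exact Poisson interval) in nuclear and 581 reads (554 to 609) in total AGO2 with doxycycline. That was 0.112% (0.106 to 0.118, Wilson interval) and 0.108% (0.103 to 0.113) of all miRNA reads, with overlapping intervals. For each read of the cluster there were 589 reads of the miR-290 cluster in the nuclear fraction and 640 in the total one. Without doxycycline the cluster had 22.5 mean reads (17.3 to 28.4) in the nuclear fraction and 21.3 (16.4 to 27.2) in the total one, or 0.0618% (0.0484 to 0.0781) and 0.133% (0.104 to 0.170) of miRNA reads. miR-805 alone took 63.7% and 33.3% of the reads without doxycycline, and with it left out these shares were 0.170% (0.133 to 0.215) and 0.199% (0.156 to 0.254). With doxycycline the same step gave 0.115% and 0.109%. The miR-290 cluster had 231 and 242 reads for each read of the miR-302 cluster without doxycycline, so the ratio of both clusters lay lower there than with it.

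Main arms held most of these reads with doxycycline. mmu-miR-302d (miR-302d), a main arm with the AAGUGCU seed, had 113 mean reads in nuclear and 164 in total AGO2 with doxycycline, and 6.08 and 3.67 without it. mmu-miR-302b, which shares that seed, stood at 94.4 mean reads in the nucleus and 153 in the total fraction after induction, against 2.15 and 1 in uninduced cells. For mmu-miR-302a the induced columns held 98.4 and 101 mean reads and the others 5.15 and 4.67. With doxycycline, these 3 main arms each had at least 94 mean reads in either fraction, and without it none reached 10. mmu-miR-367, which has the seed of miR-25 and miR-92a, reached 84 mean reads in nuclear and 94 in total AGO2, against 5.33 and 2 in uninduced cells. mmu-miR-302c, the main arm with the shifted 5′ end, had 33.7 and 31.3 mean reads after induction and 1.08 and 0.33 otherwise, where the last value is 1 read over 3 libraries. It was the lowest main arm in all 4 columns.

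With doxycycline each of the 3 star arms was below its own main arm, while in the total fraction without it each was above. There star and main arm had 17 and 14 reads for miR-302a, 7 and 3 for miR-302b and 5 and 1 for miR-302c. The interval of the star share included equal parts for both arms in each of these hairpins, so that order is not settled. miR-302a* had 18.3 mean nuclear and 31.7 mean total reads after induction, and 1 and 5.67 in uninduced cells, so that in the total fraction without doxycycline it had more reads than any other entry of the cluster. In that order, miR-302b* had 4, 1.33, 1.33 and 2.33 mean reads. miR-302c* had 1, 4.33, 0.33 and 1.67 mean reads. Both stayed under 15 reads over the 3 libraries in every column, so their values rest on few reads.

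**Figure D1:**
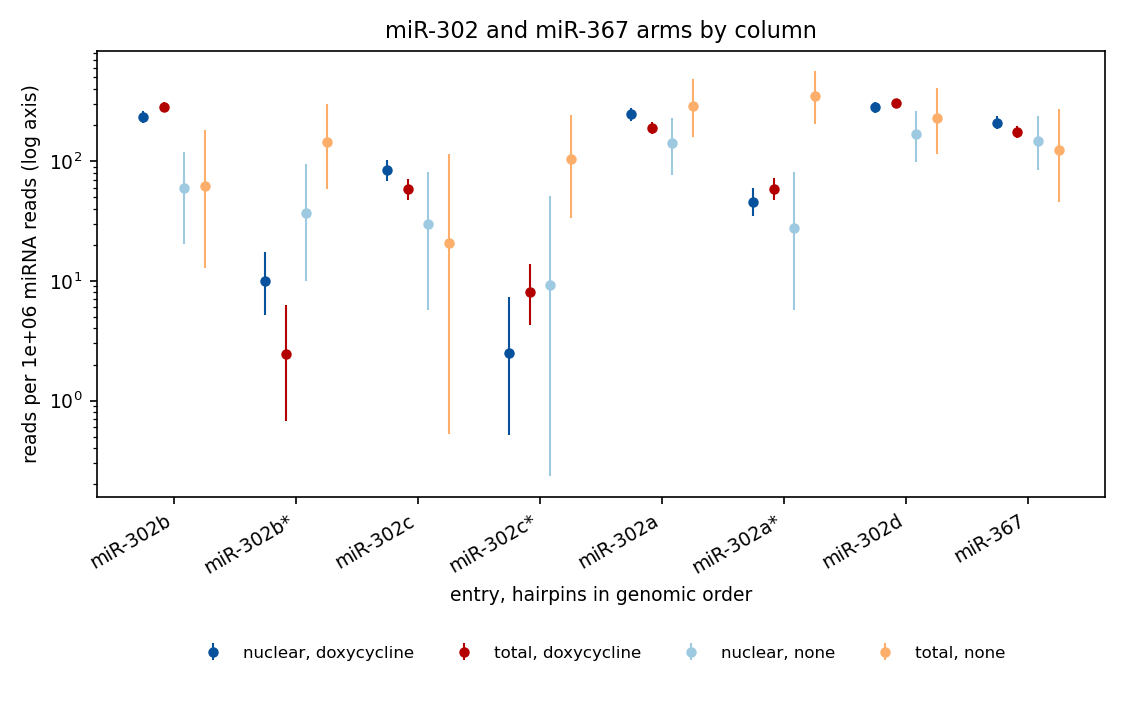
Level in CPM (log axis, labelled as reads per 1e+06 miRNA reads) of the 8 entries, hairpins in genomic order, in the 4 columns of group means. Points are the authors' means scaled to CPM and bars are exact Poisson 95% intervals for counting error. The main arms other than miR-302c lie between 174 and 304 CPM with doxycycline, and the bars without doxycycline are much wider.

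Set against the size of each column, the order of the main arms differed between the fractions only among neighbours. As the matched mature sequences are 22 or 23 bases long, no correction for length was made, though miR-302a had no matched sequence. In total AGO2 with doxycycline, miR-302d stood at 304 CPM (278 to 332) and miR-302b at 283 (258 to 310), followed by miR-302a at 188 (167 to 210), miR-367 at 174 (154 to 196) and miR-302c at 58.1 (46.9 to 71.1). The intervals of miR-302d and miR-302b overlapped, as did those of miR-302a and miR-367, while the steps between miR-302b and miR-302a and between miR-367 and miR-302c were wider than the intervals. In nuclear AGO2, miR-302d stood at 282 CPM (253 to 314), miR-302a at 246 (218 to 275), miR-302b at 236 (209 to 264), miR-367 at 210 (185 to 237) and miR-302c at 84.0 (68.4 to 102). There each of the first 4 overlapped its neighbour, and miR-302c stood apart. Among all 689 entries these main arms ranked between 154 and 284 in the total and between 160 and 258 in the nuclear fraction. Without doxycycline the intervals were too wide to order the main arms, as for miR-302d at 167 CPM (97.9 to 261) and miR-302a at 141.8 CPM (77.0 to 227) in the nuclear fraction.

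The makeup of the cluster followed from these levels. miR-302d took 25.3% (23.0 to 27.7) of the cluster's reads in nuclear and 28.2% (26.2 to 30.4) in total AGO2 with doxycycline. miR-302b took 21.1% (19.0 to 23.4) and 26.3% (24.3 to 28.4), so its share was smaller in the nucleus by more than the counting error. miR-302a had the opposite difference, with 22.02% (19.9 to 24.3) in the nuclear fraction and 17.5% (15.7 to 19.3) in the total one. The share of miR-367 was 18.8% (16.8 to 21.0) and 16.2% (14.5 to 17.99), and that of miR-302c 7.53% (6.24 to 9.07) and 5.40% (4.43 to 6.56), both with overlapping intervals. Without doxycycline miR-302b had 9.57% (4.17 to 18.2) of the nuclear and 4.69% (1.61 to 12.9) of the total reads of the cluster, below its shares with doxycycline. miR-302a* took 26.6% (17.3 to 38.5) of the total reads without doxycycline against 5.45% (4.48 to 6.62) with it.

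**Figure D2:**
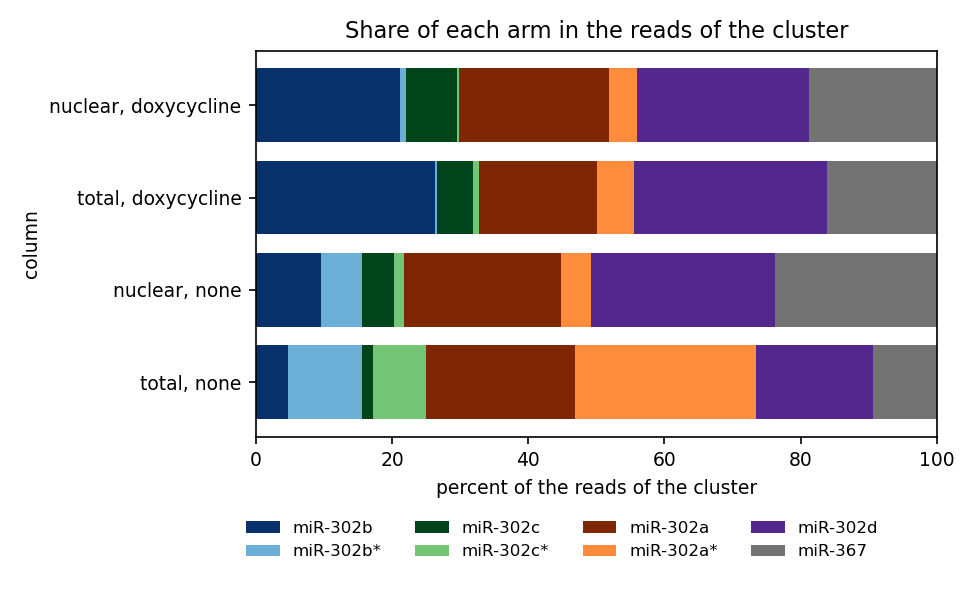
Share of each of the 8 entries in the summed reads of the cluster, in percent, for the 4 columns. Dark colours are the main arms of miR-302, and miR-367, also a main arm, is grey. The paler shade beside miR-302b, miR-302c and miR-302a is the star arm of each. The star arms take a wider part of the bar for the total fraction without doxycycline, led by miR-302a* at 26.6%.

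For 3 hairpins both arms could be set against each other. In miR-302a the star arm held 15.7% (12.3 to 19.9) of the reads of both arms in nuclear and 23.8% (19.9 to 28.2) in total AGO2 with doxycycline, intervals that just met. In miR-302b it held 4.06% (2.34 to 6.97) and 0.865% (0.336 to 2.20), and in miR-302c 2.88% (0.986 to 8.14) and 12.1% (7.24 to 19.7). The star share of miR-302b was thus higher in the nucleus with intervals apart, though from only 12 and 4 star reads. For miR-302a and miR-302c it was lower in the nucleus, with intervals that met or overlapped. Whether intervals overlap is not a test of a difference, so it does not set miR-302b apart from the other hairpins. In the total fraction without doxycycline the star arm held 54.8% (37.8 to 70.8) for miR-302a, 70% (39.7 to 89.2) for miR-302b and 83.3% (43.6 to 97.0) for miR-302c, all above the share of the same hairpin with doxycycline. Those shares rest on 31, 10 and 6 reads. In the nuclear fraction without doxycycline they were 16.3% (5.84 to 39.2), 38.3% (16.8 to 68.7) and 23.5% (4.56 to 69.9).

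The first comparison, of both fractions after induction, asks whether nuclear AGO2 held the cluster to the same extent. Summed, the cluster did not differ beyond counting error, with a log2 fold (nuclear over total, scaled with TMM factors) of 0.04 (-0.07 to 0.14). The 6 entries whose mean count reached 10 in a compared column differed by less than 2-fold. miR-302c was at 0.52 (0.10 to 0.94), miR-302a at 0.37 (0.13 to 0.61) and miR-367 at 0.25 (0.00011 to 0.50), all with intervals above 0. miR-302b was at -0.28 (-0.50 to -0.06), below 0 and clear of the interval of miR-302a. miR-302d at -0.12 (-0.33 to 0.08) and miR-302a* at -0.38 (-0.88 to 0.12) had intervals that included 0. Of these 6 entries 0 were 2-fold or more higher and 0 that much lower, while of all 378 entries that reached that mean count 10.3% were higher and 3.97% lower. The median of the 6 was 0.06 against -0.04 for all 378. miR-302b* and miR-302c* did not reach that minimum; their folds were 2.00 (0.28 to 4.09, from 12 and 4 reads) and -1.70 (-4.15 to 0.16, from 3 and 13 reads). The miR-290 cluster was at -0.08 (-0.09 to -0.08), and the difference of the miR-302 cluster from it was 0.12 (0.02 to 0.22).

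Reads that match several members limit how far the single miR-302 main arms can be told apart. Over the 3 libraries, the nuclear column with doxycycline held 283.33 reads of miR-302b, 295.33 of miR-302a and 339.33 of miR-302d, which points to reads divided among them. In the total fraction it was 458.5 for miR-302b and 491.5 for miR-302d, while miR-302a and miR-302c were whole. How many reads were divided cannot be read from the means. The sum of the 4 main arms of miR-302, which does not depend on a division among them, had a log2 fold of 0.01 (-0.11 to 0.13) between these columns. In the nuclear fraction without doxycycline all 4 held parts of reads, such as 6.45 reads for miR-302b. Their sum there, 43.4 reads, was not whole either. Whether reads were also divided with entries outside these 4 was not tested.

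The nuclear columns with doxycycline and with none were set side by side to see how the cluster changed relative to other miRNAs. The cluster had 19.9 times as many reads with doxycycline. Such a ratio also carries the depth of each library, so folds were set relative to the typical miRNA, which put the cluster at a log2 fold of 0.35 (0.00094 to 0.73). That scaling also takes out any gain shared by all miRNAs. How far the reads depended on the induced AGO2 therefore cannot be read from these folds. miR-302b was highest at 1.49 (0.45 to 3.05), with 43.9 times the reads. The other main arms had intervals that included 0, with miR-302c at 0.99 (-0.48 to 3.41), miR-302a at 0.29 (-0.42 to 1.19), miR-302d at 0.25 (-0.41 to 1.04) and miR-367 at 0.01 (-0.72 to 0.84). miR-302a* was at 0.23 (-1.39 to 2.55). Of 6 entries over the minimum, 1 was at least 2-fold higher and 0 lower, where 30.5% of all 371 entries were higher and 33.7% lower. All 6 passed the minimum only through the doxycycline column, so the count describes those 6 alone. Below it, miR-302b* was at -2.38 (-4.10 to -0.29, 12 and 4 reads) and miR-302c* at -2.38 (-6.02 to 3.33, 3 reads and 1 read). The miR-290 cluster stood at 1.70 (1.68 to 1.72), and the miR-302 cluster differed from it by -1.35 (-1.71 to -0.998), or by -1.25 (-1.62 to -0.87) for its main arms. By library totals without miR-805 the cluster was at -0.56, below 0, where the median of all 371 entries was -0.87.

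In the total fraction, the same comparison gave 27.2 times as many reads with doxycycline, and a log2 fold of -0.24 (-0.60 to 0.14) for the cluster. Star arms decided its sign, since the main arms alone were at 0.53 (0.050 to 1.06). miR-302b was again highest at 2.25 (0.69 to 4.53), though from only 3 reads without doxycycline. miR-302c was at 1.55 (-0.97 to 6.86, from 94 reads and 1 read), miR-367 at 0.55 (-0.59 to 2.00), miR-302d at 0.47 (-0.38 to 1.49) and miR-302a at -0.57 (-1.34 to 0.32). miR-302a* was at -2.53 (-3.28 to -1.69), with 5.59 times the reads. Of 6 entries over the minimum, again all through the doxycycline column, 2 were at least 2-fold higher and 1 lower, where 31.8% of all 359 entries were higher and 32% lower. Below the minimum, miR-302b* was at -5.82 (-8.04 to -3.84, 4 and 7 reads) and miR-302c* at -3.63 (-5.21 to -1.79, 13 and 5 reads). The cluster differed from the miR-290 cluster by -1.40 (-1.76 to -1.04), and its main arms by -0.63 (-1.11 to -0.14). By library totals without miR-805 the cluster was at -0.88, where the median of all 359 entries was -0.59.

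**Figure D3:**
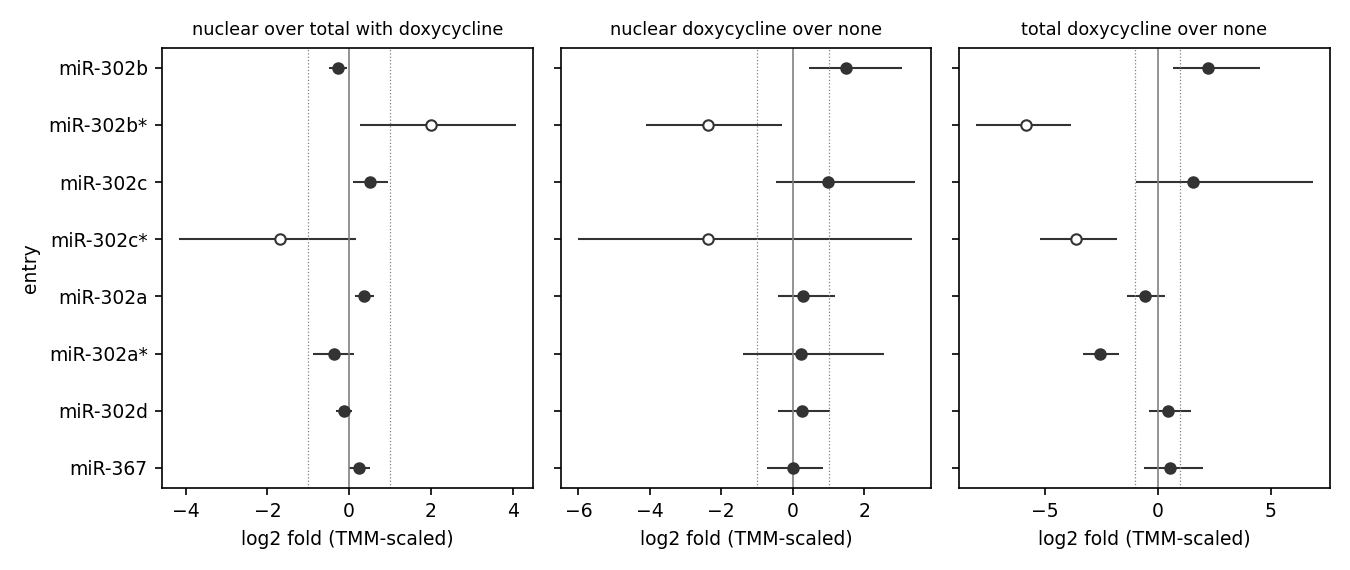
Log2 fold (TMM-scaled) of the 8 entries in 3 comparisons, named above each panel; each panel has its own horizontal scale. Filled points reached a mean count of 10 in a compared column, open points did not, bars are 95% counting intervals, and dotted lines mark 2-fold. miR-302b is highest in both comparisons with cells without doxycycline, and its interval lies below 0 between the fractions.

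The fold with doxycycline was set against the other fraction for each entry, which gives the difference between both fractions. For the main arms together it was -0.08 (nuclear minus total, -0.69 to 0.53). For miR-302a* it was 2.76 (0.92 to 4.59), from folds of 0.23 and -2.53, and for miR-302b* 3.43 (1.02 to 5.84). The intervals of the 5 main arms included 0, with differences from -0.76 for miR-302b to 0.86 for miR-302a. For the whole cluster the difference was 0.59 (0.09 to 1.09), and without miR-302a* it was 0.23 (-0.32 to 0.78). The scaling decided whether the first interval excluded 0, since it was 0.31 (-0.19 to 0.82) by library totals without miR-805 and 0.39 (-0.12 to 0.89) with TMM factors taken between the fractions. miR-302a* had 17 reads in the total and 3 in the nuclear fraction without doxycycline. miR-302b* had 7 and 4 reads there, and 4 and 12 with doxycycline, so its difference rests on few reads.

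Between the fractions without doxycycline, the cluster was at -0.35 (-0.88 to 0.16) and its main arms at 0.34 (-0.30 to 0.97). None of the 8 entries reached the minimum in these columns; of the 189 that did, 23.8% were higher in the nuclear fraction by 2-fold or more and 16.9% lower. miR-302a* had an interval that excluded 0, at -2.93 (-5.34 to -1.14). The other 7 had intervals that included it, from miR-302c* at -2.75 (-8.31 to 0.41) to miR-302c at 1.27 (-2.48 to 6.87).

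The seed shows how small a part the cluster had among miRNAs with which it could share targets. Among entries matched to a mature sequence, 5 had the seed AAGUGCU, of which miR-302b and miR-302d belong to the cluster and miR-291a-3p, miR-294 and miR-295 to the miR-290 cluster. miR-302a was matched to no sequence and could not be grouped by seed. Together the 5 took 36.6% of all miRNA reads in nuclear and 39.2% in total AGO2 with doxycycline. miR-302b and miR-302d held 0.142% (0.131 to 0.153) and 0.150% (0.141 to 0.160) of those reads, with overlapping intervals. miR-294 held 43.9% of the nuclear and 48.9% of the total reads of that seed. Without doxycycline the pair held 0.505% (0.347 to 0.754) of the nuclear and 0.299% (0.178 to 0.502) of the total reads, shares above those with doxycycline. These rest on 25 and 14 reads. With miR-302a (no matched sequence) and miR-302c (another seed by annotation) counted too, the cluster held 0.232% and 0.212% with doxycycline, and 0.885% and 0.618% without it.

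miR-367 stood closer to the other miRNAs of its seed. The 6 entries with AUUGCAC were miR-92a, miR-25, miR-363, miR-32, miR-367 and miR-92b, which together took 1.27% of nuclear and 1.22% of total reads with doxycycline. miR-367 held 1.64% (1.45 to 1.86) of these in the nuclear fraction and 1.43% (1.27 to 1.61) in the total one, close to miR-92b at 1.43% (1.25 to 1.62) and 1.31% (1.16 to 1.48). miR-92a led with 54.0% and 61.2%, and miR-25 followed with 29.7% and 23.1%. Between the fractions with doxycycline, miR-367 at 0.25 lay among entries of its seed that ranged from miR-363 at -0.32 (-0.43 to -0.22) to miR-32 at 1.11 (0.95 to 1.27). With doxycycline against none in the nuclear fraction, miR-367 at 0.01 lay near miR-92a at 0.07 (-0.06 to 0.20) and miR-25 at -0.0042 (-0.18 to 0.17), with miR-92b at 0.63 (-0.32 to 1.78). miR-32 at 1.97 (1.19 to 2.89) and miR-363 at 3.97 (2.75 to 5.60) lay above its interval. In the total fraction miR-367 was at 0.55 (-0.59 to 2.00), beside miR-92b at 0.42 (-0.72 to 1.88) and miR-32 at 0.77 (-0.17 to 1.90), with miR-92a at -0.20 (-0.34 to -0.06) and miR-25 at -0.22 (-0.45 to 0.01) within its interval and miR-363 at 4.99 (3.14 to 8.04) above it.

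**Figure D4:**
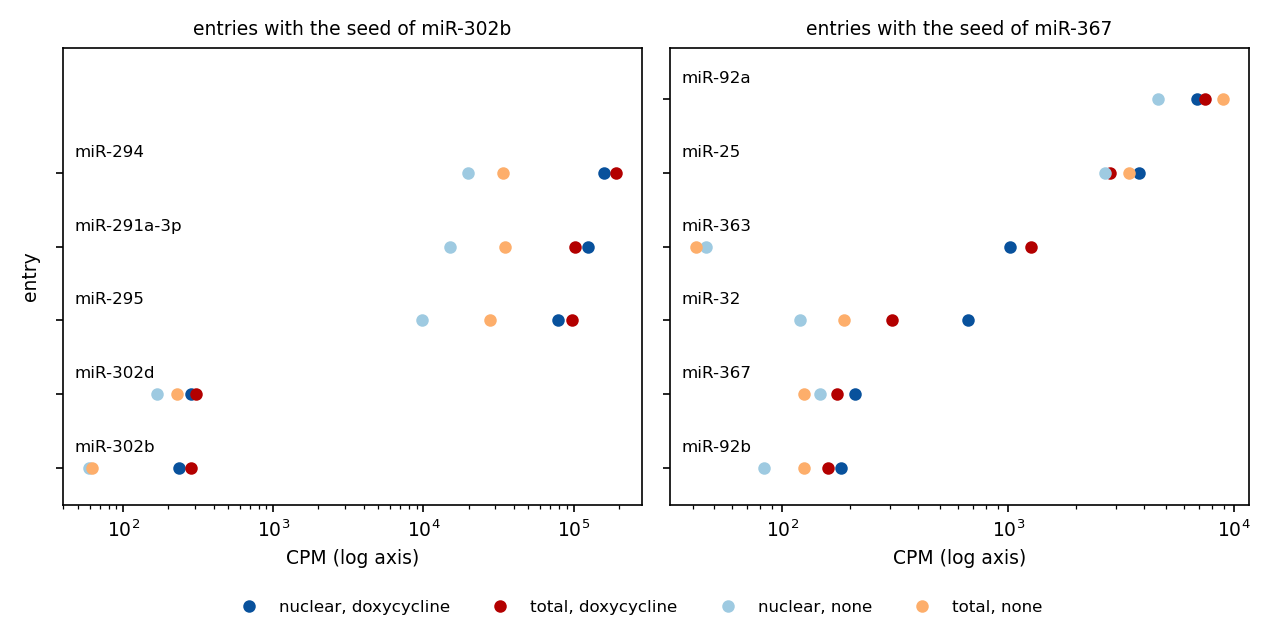
Level in CPM (log axis) in the 4 columns for the 5 entries with the seed of miR-302b (left) and the 6 entries with the seed of miR-367 (right); the panels have their own horizontal scales. Each point is the authors' mean for a group, scaled to CPM. On the left miR-302b and miR-302d lie far below miR-294, miR-291a-3p and miR-295, while on the right miR-367 lies beside miR-92b.

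Entries whose pattern over the 4 columns was most like that of the summed cluster were found by the distance between TMM-scaled log2 levels, each centred on its own mean, among 330 entries with a mean of at least 1 in every column. Nearest was miR-146a, known from immune cells, at a distance of 0.16, with 35.8, 45.3, 2 and 1.67 mean reads (nuclear and total with doxycycline, then nuclear and total without it). It was followed by miR-92a of the miR-17-92 cluster at 0.20, miR-499 of heart muscle at 0.23, miR-28 at 0.23 and miR-150 of lymphocytes at 0.24. The median distance over the 330 entries was 1.97. A likeness over 4 columns of means is a description, and the few reads without doxycycline carry much of it.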

How the data were processed

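The deposited table holds estimated counts per miRNA, which the authors averaged into 1 column per group, per the file headers. Values were not scaled between columns. That each is a mean over 3 libraries was taken from the labels and the values, of which 78.4% to 91.4% per column were whole after multiplication by 3 (within 1e-06). bcl2fastq 2.17.1, TopHat and mm10 are named, per the submitters' processing notes; how reads were counted, and how those with several matches were handled, is not given in the sources used here. The members and lists were chosen with earlier results of these data known.

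No test needing per-library counts (edgeR's quasi-likelihood test) was run. Mean counts were scaled with TMM factors (edgeR 4.0.16, R 4.3.3) from entries whose mean count reached 10 in a compared column. Log2 folds have 95% Clopper-Pearson intervals from reads over the group (mean times 3, rounded), and shares have Wilson intervals. Differences between folds use a normal approximation to counting error. In the background counts an entry at 0 was set to 3 reads over the group. A 2-fold size was a rule, not a test. Named were all members, the entries sharing a seed with miR-302b and miR-302d or with miR-367, miR-805, and the 5 entries nearest in pattern. Older names were paired by hand with RefSeq arms. The procedure was run on simulated counts that held counting error alone, so that run cannot show how it fares with spread between libraries. Calculations ran in Python 3.11.15 with SciPy 1.17.1, pandas 2.3.3 and numpy 2.4.6, and figures were drawn with matplotlib 3.10.9.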

Additional observations from a re-analysis of the deposited data

How the results depend on the processing

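Depth without doxycycline limits every comparison with those columns, where the cluster had 67 (nuclear) and 64 (total) reads over 3 libraries. No paired analysis was possible because the table has 1 mean column per group, and for the same reason no replicate could be left out. Leaving out star arms and miR-302a*, and counting miR-302a and miR-302c with the seed, were chosen after seeing the data. No cause of the changes below was tested except scaling, which shifts all entries of a comparison alike and depends on the filter. Between the fractions with doxycycline the summed log2 fold turned to -0.38 without scaling (where the median of all entries was -0.46) and to -0.17 with no filter on low counts. For nuclear doxycycline against none it was 0.85 by library totals (median of all entries 0.55), -0.56 by totals without miR-805 (-0.87), 4.31 without scaling (4.01) and 2.16 with no filter. For the total fraction it was -0.88 by totals without miR-805 (-0.59), 4.77 without scaling (5.05), 0.75 with no filter and 0.53 without star arms. Between the fractions without doxycycline it was -1.10 by library totals (-0.84) and 0.34 without star arms. Without scaling, log2 folds with doxycycline reversed to 1.58 for miR-302b* (nuclear), 1.38 for miR-302c* (total) and 2.48 for miR-302a* (total). Another 25 folds of single entries moved out of their counting intervals and 139 stayed within them. Some of the 139 changed sign inside their intervals, such as miR-302c* for nuclear doxycycline, from -2.38 to 1.58 without scaling. By totals without miR-805 so did miR-302a* for nuclear doxycycline (0.23 to -0.68). The same held for miR-302d (0.47 to -0.16) and miR-367 (0.55 to -0.09) for total doxycycline. Of the 25, 7 changed sign, all from a main value of under 2-fold: miR-302a (-0.04) and miR-367 (-0.16) between the fractions with doxycycline without scaling, miR-302a (-0.62), miR-302d (-0.66) and miR-367 (-0.90) for nuclear doxycycline by totals without miR-805, and miR-302a for total doxycycline without scaling (4.44) and with no filter (0.43). The difference between the doxycycline folds of the cluster, whose alternatives were chosen after seeing the data, went from 0.59 to 0.31 by totals without miR-805, 0.39 with factors between the fractions and -0.45 without scaling. This difference was larger by library totals, at 1.16, and with no filter, at 1.40. Without miR-302a* it went from 0.23 to 0.80 by library totals, 1.04 with no filter, -0.046 by totals without miR-805 and -0.81 without scaling.

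Entries at least 2-fold higher and lower numbered 39 and 15 between the fractions with doxycycline, against 44 lower without scaling, and 170 and 50 with no filter. For nuclear doxycycline they were 113 and 125, against 60 higher by totals without miR-805, 301 and 15 without scaling, and 247 and 301 with no filter. For total doxycycline they were 114 and 115, against 70 higher by totals without miR-805, 330 and 3 without scaling, and 188 and 316 with no filter. Without doxycycline they were 45 and 32, against 29 and 76 by library totals, 15 lower without scaling, and 164 and 122 with no filter. With miR-302a and miR-302c, neither of them matched to the seed AAGUGCU, added to that group, the cluster's share was 0.232% (nuclear) and 0.212% (total) with doxycycline. Without it the share was 0.885% and 0.618%. The cluster's share of all reads without doxycycline moved to 0.170% and 0.199% with miR-805 left out.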
